A study of Mus musculus with 81 samples.

Results

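Chromatin accessibility was compared between reprogramming mouse embryonic fibroblasts (MEF) that were held under aphidicolin and MEF that were left untreated, over 139000 genomic regions for which the authors deposited raw read counts. The regions and all 6 count columns of that table were used, 3 per group, out of 81 samples in the series, and a region is in the table where a peak was found in all 3 libraries of at least one group. Every cell carried 1 allele each of the doxycycline-inducible OKSM cassette (Oct4, Klf4, Sox2 and Myc) in the Col1a1 locus (Col1a1::tetOP-OKSM het), of the transactivator R26-M2rtTA and of the reporter Oct4GFP, on the Black6-129X1/SvJ background given in the labels. Both groups received 2 µg/mL doxycycline with LIF and ascorbic acid. The treated group got 5 µg/mL aphidicolin from 4 h of doxycycline on, both groups were then cultured for 10 h, and the labels give 14h as the time of both. The cassette is driven in all cells of the culture, and Oct4, Sox2, Klf4 and Myc reads from it cannot be told apart from those of the endogenous exons.

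ATAC-seq cuts DNA with a transposase that reaches open chromatin, so that reads pile up at active promoters, enhancers and other sites free of nucleosomes. Aphidicolin inhibits the replicative DNA polymerases and stops fork progress, and at lower doses it is the classical agent that exposes common fragile sites, which lie in very long genes. Replication passes through a genome in an order: gene-rich, open chromosome domains are copied early in S phase and gene-poor domains late, and chromatin has to be opened again behind each fork. Fibroblasts are mesenchymal cells with a strong actin cytoskeleton, and the genes of their contractile apparatus depend on the serum response factor SRF, which binds the CArG box.

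Library totals were 41183769 to 49440524 counts in the untreated group and 55158844 to 78677381 with aphidicolin, so all aphidicolin libraries were deeper. Each library's number in the table is not tied to a sample in the labels, so the 3 libraries of each group go by the letters a, b and c. Of 138996 regions tested with edgeR's quasi-likelihood test, 35.9% were called at a Benjamini-Hochberg adjusted p of 0.05: 25061 regions (18.0%) were higher with aphidicolin and 24874 (17.9%) lower. The call count falls to 30467 without aphidicolin library b and to 32011 without library c. TMM scaling centres the changes, and with library totals 42149 regions were higher and 11101 lower (79.2% of calls higher, against 50.2%), while the median of all regions moved from 0.02 to 0.18 on the log2 scale, so directions are relative to the bulk of regions. Counts of a region depend on DNA copies as well as on openness. DNA copies were not analysed here, so the 2 cannot be told apart, and neither can fewer cells with an open site and less openness per cell.

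Marker genes of fibroblasts were open at their ends in both groups: all 10 (Col1a1, Col3a1, Thy1, Pdgfra and others) had a region within 1 kb of a gene end, with 18.5 to 19.9 CPM (counts scaled to a common library size) per marker in the untreated libraries and 15.2 to 15.9 with aphidicolin. Of 8 macrophage and blood markers, Adgre1, Fcer1g, Ptprc and Tyrobp had no region at a gene end, and the list summed to 7.31 to 8.50 CPM per marker untreated and 5.53 to 5.69 with aphidicolin. Of 8 pluripotency markers only 2 had such a region, and Nanog, Esrrb, Zfp42, Dppa3, Dppa5a and Tdgf1 had none. The other lists held 9.59 to 11.0 against 8.93 to 10.1 CPM per marker (endothelial), 3.93 to 5.09 against 3.76 to 4.31 (epithelial), 1.91 to 2.23 against 2.23 to 2.59 (muscle) and 11.2 to 14.7 against 10.3 to 12.0 (neural and glial). The fibroblast and macrophage sums did not overlap between groups, and the macrophage sum rests on 4 regions. Of all regions within 1 kb of a gene end 44.3% were lower (median log2 fold change -0.23). With counts summed per gene, 3 of 10 fibroblast markers were called higher and 3 lower (median -0.02). Of the 5 macrophage and blood markers found, 1 was higher and 2 lower. The part of these marker sums in the results below was not tested.

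At start sites of genes accessibility often fell. Of 10919 tested regions over an annotated start, 53.2% were lower and 3.09% higher, with a median log2 fold change of -0.26, against 17.9% lower of all regions. Starts are strong regions, so offsets that remove the trend of fold change with region strength (strength offsets) were also used. With these offsets 6.66% of the 10919 regions were lower and 7.45% higher, where 10.7% of all regions were lower and 11.3% higher. Upstream DNA of 3 of these starts is shown for the letters it carries. These are the 3 largest falls with a CArG box within 250 bases upstream of a gene with 1 annotated start. A CArG box is the pair CC and the pair GG around 6 bases that are each A or T. The region had to be above the median level, called, covering the start and without overlap between groups. The rule also left out starts whose 250 upstream bases overlap a gene model, and all starts of a single chromosome. The box is in capitals, the sequence is RefSeq's on GRCm38.p6 (positions as in mm10), and it reads 5′ to 3′ towards the start.
Myo1e: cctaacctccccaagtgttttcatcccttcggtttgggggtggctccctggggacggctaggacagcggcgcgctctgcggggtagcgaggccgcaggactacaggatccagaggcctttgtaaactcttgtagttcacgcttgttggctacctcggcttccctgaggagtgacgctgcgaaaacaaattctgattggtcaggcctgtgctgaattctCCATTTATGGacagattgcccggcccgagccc
Top1: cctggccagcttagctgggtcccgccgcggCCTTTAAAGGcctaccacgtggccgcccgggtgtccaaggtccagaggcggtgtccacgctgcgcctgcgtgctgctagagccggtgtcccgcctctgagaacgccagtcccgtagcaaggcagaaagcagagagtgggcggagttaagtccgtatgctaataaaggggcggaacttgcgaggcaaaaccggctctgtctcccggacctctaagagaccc
Rasa4: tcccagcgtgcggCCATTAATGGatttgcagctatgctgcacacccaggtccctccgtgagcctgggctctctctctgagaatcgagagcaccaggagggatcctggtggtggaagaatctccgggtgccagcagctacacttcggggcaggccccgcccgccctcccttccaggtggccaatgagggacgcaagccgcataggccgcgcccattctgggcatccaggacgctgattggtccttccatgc
Myo1e encodes a class I myosin, a motor that links actin to membranes, and its upstream DNA lies at chr9:70207100-70207349 on the plus strand. The region over its start had 5.29, 5.32 and 5.28 log2 CPM untreated (libraries a, b and c) and 4.81, 4.66 and 4.79 with aphidicolin, which is a change of -0.54 ± 0.08 on the log2 scale (SE, adjusted p = 1.4e-04). Top1, which encodes DNA topoisomerase I, the enzyme that relieves torsion ahead of polymerases (chr2:160645647-160645896, plus strand), had 5.52, 5.55 and 5.41 untreated and 5.08, 4.98 and 4.99 with aphidicolin (-0.48 ± 0.08, adjusted p = 3.1e-04). Rasa4, a gene for a Ras GTPase-activating protein (chr5:136083666-136083915, plus strand), had 5.21, 5.05 and 4.80 untreated and 4.68, 4.44 and 4.55 with aphidicolin (-0.48 ± 0.10, adjusted p = 1.7e-03). In all 3 regions every aphidicolin library was below every untreated one. All 3 are in the strongest decile of regions, and with strength offsets only Myo1e was still called (-0.22, adjusted p = 0.021, against -0.13 for Top1 and -0.17 for Rasa4).

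A CArG box occurs in 1.52% of all promoters (250 bases before to 50 after the start, either strand). Regions over starts with one were lower in 64.0% of 139 cases, against 53.1% of starts without. In the strongest decile the shares were 79.3% (87 regions) and 75.2%, and in the decile below 61.9% (21 regions) and 32.6%. With strength offsets the shares in the strongest decile were 5.75% and 5.99%, so no gap remained there. In the decile below they were 14.3% and 7.12%. The letters CCAAT, in 38.2% of promoters on either strand, also went with falls in strong regions: in the strongest decile 81.6% of 2667 starts with CCAAT were lower and 70.8% of 3852 without, and in the next decile 37.6% against 30.5%. With strength offsets the shares in the strongest decile were 8.51% and 4.23%. In the 7th decile the order was the opposite, with 8.40% against 9.66%. None of these gaps was tested. The gap by CpG content was smaller within these deciles than over all starts. Starts with an observed over expected CpG ratio of 0.8 or more were lower in 62.0% of cases and those under 0.35 in 27.3%, yet in the strongest decile the shares were 75.4% and 68.6%, and in the next 31.9% and 37.4%. Other letters were searched on both strands, each with the share of all promoters that hold it: GGGCGG of SP factors in 46.2%, CCGGAA of ETS factors in 18.7%, TTTGAA of the cell cycle homology region in 16%, GGAATG of TEAD factors in 13.6%, the TATA box TATAAA in 12.6%, the E-box CACGTG in 7.84%, TGANTCA of AP-1 in 6.99%, TGACGTCA of CREB in 2.23% and TTTCCCGC of E2F in 1.41%. With these letters, 69.9% (TATAAA) to 77.6% (TTTGAA) of starts in the strongest decile were lower, and 79.7% with the NRF1 motif and 78.1% with the YY1 motif, which 1.33% and 0.889% of promoters hold. Starts of that decile without the letters in question were lower in 74.2% (GGGCGG) to 75.5% (TATAAA) of cases, so most of these shares were near that level. These are descriptions of regions, which share libraries and can share neighbours.

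The largest falls over starts by the same rule, whatever their letters, are shown with every CCAAT or its complement ATTGG in capitals, since starts with those letters were lower more often.
H1f3: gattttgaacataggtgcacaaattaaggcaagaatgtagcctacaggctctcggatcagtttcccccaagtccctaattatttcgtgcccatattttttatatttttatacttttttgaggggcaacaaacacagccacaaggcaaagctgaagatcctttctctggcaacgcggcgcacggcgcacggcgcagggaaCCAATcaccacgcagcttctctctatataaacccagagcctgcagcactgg
Txnip: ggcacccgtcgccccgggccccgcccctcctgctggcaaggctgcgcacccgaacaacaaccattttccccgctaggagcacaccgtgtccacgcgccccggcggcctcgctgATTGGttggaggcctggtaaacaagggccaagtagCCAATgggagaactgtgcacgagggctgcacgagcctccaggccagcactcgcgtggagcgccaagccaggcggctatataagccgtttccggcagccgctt
Snapc5: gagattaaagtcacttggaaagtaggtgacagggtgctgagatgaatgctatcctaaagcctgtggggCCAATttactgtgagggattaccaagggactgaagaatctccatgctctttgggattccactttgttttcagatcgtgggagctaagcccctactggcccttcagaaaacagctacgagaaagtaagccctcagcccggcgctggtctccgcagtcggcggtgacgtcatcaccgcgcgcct
H1f3 encodes a linker histone (chr13:23554782-23555031, plus strand). The region over its start went from 4.64, 4.74 and 4.69 log2 CPM to 3.91, 3.78 and 4.01, a change of -0.79 ± 0.08 (SE, adjusted p = 3.1e-05), and it stayed called with strength offsets (-0.56). Txnip, which encodes a glucose-responsive inhibitor of thioredoxin (chr3:96557707-96557956, plus strand), went from 4.99, 4.86 and 4.62 to 4.31, 4.02 and 4.04 (-0.71 ± 0.10, adjusted p = 1.5e-04), and it carries CCAAT once on each strand. Snapc5, a subunit gene of the complex that starts small nuclear RNA genes (chr9:64179047-64179296, plus strand), went from 5.40, 5.53 and 5.51 to 4.76, 4.89 and 4.70 (-0.69 ± 0.08, adjusted p = 5.3e-05). Groups did not overlap in any of the 3, and both Txnip and Snapc5 kept their call with strength offsets (-0.44 and -0.35).

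Without strength offsets rises over starts were few, with 58 regions against 1827 falls passing the same conditions. With the offsets 7.45% of the 10919 regions over starts were higher and 6.66% lower. The 3 largest are shown with the same capitals, of which none occurs in these windows.
Qrfprl: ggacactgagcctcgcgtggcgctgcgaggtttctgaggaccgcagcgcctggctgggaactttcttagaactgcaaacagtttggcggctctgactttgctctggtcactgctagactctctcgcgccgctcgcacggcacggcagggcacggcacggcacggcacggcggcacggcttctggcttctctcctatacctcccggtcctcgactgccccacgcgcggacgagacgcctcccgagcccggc
Gm5414: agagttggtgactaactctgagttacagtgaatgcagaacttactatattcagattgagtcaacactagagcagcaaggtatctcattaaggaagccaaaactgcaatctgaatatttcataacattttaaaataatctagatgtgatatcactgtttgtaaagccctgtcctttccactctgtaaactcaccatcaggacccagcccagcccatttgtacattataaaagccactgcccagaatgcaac
Ifi209: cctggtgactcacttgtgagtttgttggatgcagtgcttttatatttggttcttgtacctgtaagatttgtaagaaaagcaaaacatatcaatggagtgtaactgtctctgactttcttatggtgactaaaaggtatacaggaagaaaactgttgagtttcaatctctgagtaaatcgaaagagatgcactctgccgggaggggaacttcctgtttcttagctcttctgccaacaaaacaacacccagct
Qrfprl (chr6:65381044-65381293, plus strand) went from 1.92, 1.41 and 1.44 log2 CPM to 2.43, 2.44 and 2.27 (0.77 ± 0.14, SE, adjusted p = 5.1e-04). Gm5414 (chr15:101628253-101628502, minus strand) went from 0.91, 1.79 and 1.64 to 2.23, 2.21 and 2.21 (0.73 ± 0.16, adjusted p = 2.3e-03). Ifi209, a member of the interferon-activated gene cluster of chromosome 1 (chr1:173630609-173630858, plus strand), went from 1.48, 1.48 and 1.42 to 2.09, 2.17 and 2.23 (0.71 ± 0.12, adjusted p = 3.7e-04). These 3 starts are at far lower levels than the 6 above, in the 6th of 10 strength deciles. Their upstream windows hold 28, 0 and 2 CG steps, and the median was 11.5 over the 58 rises and 17.0 over the 1827 falls. These medians were not compared at equal region strength.

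By position, calls at gene ends were mostly lower and calls far from genes mostly higher. Regions within 1 kb of a gene end were lower in 44.3% of cases and higher in 4.63% (median -0.23, 17747 tested). Regions outside genes and over 200 kb from any gene were higher in 44.1% and lower in 3.01% (median 0.36, 9409 tested). All regions had a median of 0.02. Regions inside genes but not at an end were higher in 17.5% and lower in 15.1% (median 0.03, 63959 tested). Outside genes, medians between gene ends and the farthest class went in order of distance: -0.05 at 1 to 10 kb, 0.02 at 10 to 50 kb and 0.15 at 50 to 200 kb. Gene-end regions within 1 kb of an annotated start were called lower in 50.3% of cases (median -0.25). Those at other ends of genes with an annotated start were lower in 29.2% (median -0.14, 3031 tested). Ends of genes without an annotated start were lower in 38.7% (median -0.20, 3618 tested). Without aphidicolin library b the share of gene-end regions called lower was 27.2%, and without library c 28.2%. With strength offsets the median of gene ends was -0.03 and 11.1% were lower. Other ends of genes with an annotated start stayed at -0.14, ends of genes without one were at -0.03, and regions over 200 kb away were at 0.24.

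In each library gene-end regions took 37.8%, 35.5% and 33.6% of counts untreated and 33.4%, 31.6% and 31.7% with aphidicolin (mean 35.6 ± 2.07 against 32.3 ± 1.03, SD, n = 3, exact two-sided permutation p = 0.1, the smallest that 3 against 3 allows). The groups did not overlap, but untreated c (33.6%) and aphidicolin a (33.4%) were next to each other, and the untreated libraries spread over more than the gap between the means. Among regions with a peak in all 6 libraries the groups did overlap. There gene ends took 39.4%, 37.1% and 35.2% untreated and 35.4%, 33.6% and 33.7% with aphidicolin (exact two-sided permutation p = 0.2). Regions over 200 kb from any gene took 3.03%, 3.30% and 3.54% untreated and 3.98%, 4.24% and 4.25% with aphidicolin, where the lowest aphidicolin library stood clear of the highest untreated one. The share of regions inside genes over 300 kb went from 6.13%, 6.45% and 6.75% to 7.23%, 7.54% and 7.52%. For both of the latter classes the exact permutation p was also 0.1. Without aphidicolin library b 18.5% of regions inside genes over 300 kb were called higher, and without library c 19.6%, against 29.8% with all libraries.

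**Figure D1:**
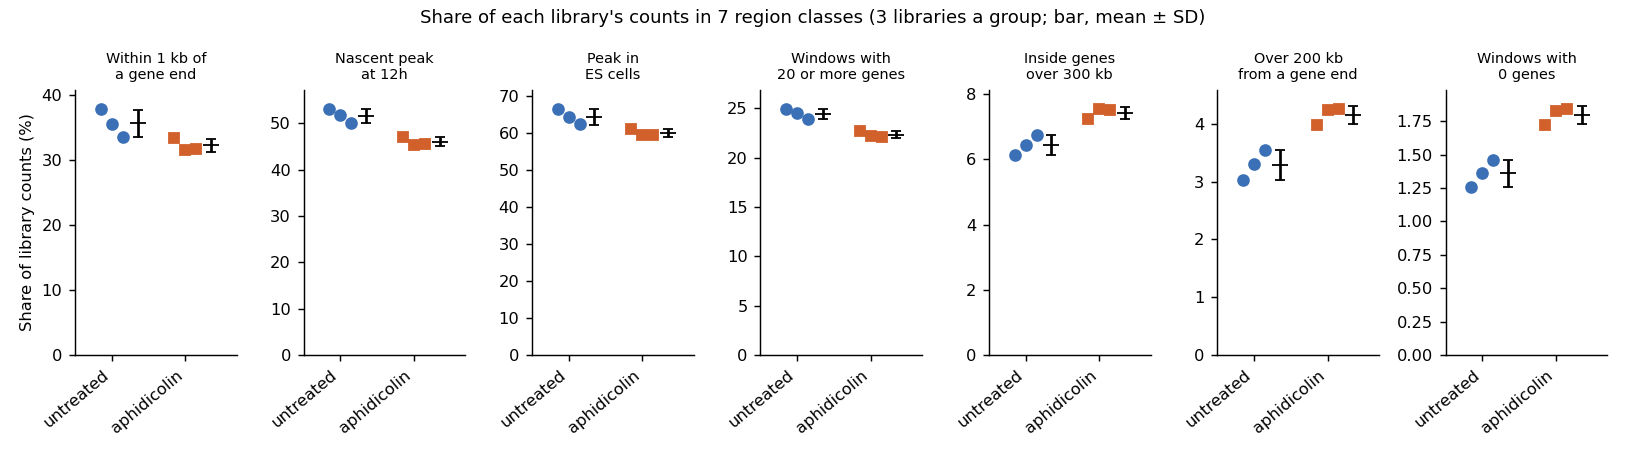
Share of each library's counts (%, y axis from 0) in 7 classes of region, for untreated (blue circles) and aphidicolin (orange squares) libraries a, b and c from left to right, with the mean and SD as a black bar. Gene-end regions span 33.6% to 37.8% untreated and 31.6% to 33.4% with aphidicolin, and regions in windows with 0 genes span 1.26% to 1.46% and 1.72% to 1.84%.

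Regions that are also peaks of freshly copied DNA had many falls and few rises. Regions with a peak in the nascent chromatin of MEF at 12h of reprogramming, a list from EdU-labelled DNA of other samples in the series, were lower in 58.8% of cases and higher in 0.693% (143 of 20643, median -0.28). Regions with only a mature peak, called 2 h after labelling, had a median of -0.04, and regions with neither were higher in 26.3% and lower in 6.77% (median 0.18). The nascent class took 53.0%, 51.7% and 50.1% of untreated counts and 47.1%, 45.4% and 45.6% with aphidicolin, and the class with neither peak 18.2%, 18.6% and 19.2% against 22.0%, 22.9% and 22.9%. Nascent peaks are strong regions, with a median of 4.34 log2 CPM against 1.10 where there was neither peak. Within each strength decile they were still the lower class, with medians of -0.34 against -0.18 in the strongest decile. Without aphidicolin library b 38.1% of the nascent class was lower. With strength offsets 12.3% were lower and 5.01% higher (median -0.04), where 10.7% of all regions were lower and 11.3% higher.

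Regions with a peak in embryonic stem (ES) cells differed in direction from those without. Regions with a peak in bulk chromatin of ES cells at 0h of their own time course were lower in 30.2% and higher in 7.52% (median -0.14), and regions without one were higher in 25.0% and lower in 9.78% (median 0.14). Shares of counts in the ES class were 66.3%, 64.1% and 62.2% untreated and 61.1%, 59.3% and 59.4% with aphidicolin. In the 5th strength decile the medians were -0.04 with and 0.15 without an ES peak. Without aphidicolin library b 18.6% of the ES class was lower, and without library c 19.5%. With strength offsets 14.3% of it was lower and 6.21% higher, against 10.7% lower of all regions (17.9% without the offsets). Regions that were bulk peaks at 6h but not at 12h of reprogramming had a median of 0.36, which was 0.08 with strength offsets and 0.07 where a peak was present in all 6 libraries.

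The number of genes in the 1 Mb of DNA around a region ordered the changes at every region strength. Regions in windows with 0 protein-coding genes were higher in 51.3% of cases and lower in 1.53% (median 0.42, 4241 tested). Medians were 0.19 with 1 to 4 genes, 0.04 with 5 to 9, -0.07 with 10 to 19 and -0.17 with 20 or more, where 34.4% were lower and 6.84% higher (22.9% lower without aphidicolin library b). The strongest decile ran from -0.13 with 0 genes to -0.37 with 20 or more, the weakest from 0.75 to 0.13. With a peak in all 6 libraries the 5th decile ran from 0.42 to -0.01. The order also held away from gene ends: regions over 10 kb from any gene end had medians of 0.43, 0.22, 0.08, -0.02 and -0.07 from 0 to 20 or more genes. At gene ends the medians ran from 0.05 (40 regions) to -0.28. Windows with 0 genes took 1.26%, 1.36% and 1.46% of untreated counts and 1.72%, 1.83% and 1.84% with aphidicolin, and windows with 20 or more 24.9%, 24.5% and 23.9% against 22.7%, 22.2% and 22.1%. With strength offsets 31.6% of regions in windows with 0 genes were higher and 19% of those with 20 or more lower, where 11.3% of all regions were higher and 10.7% lower.

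**Figure D2:**
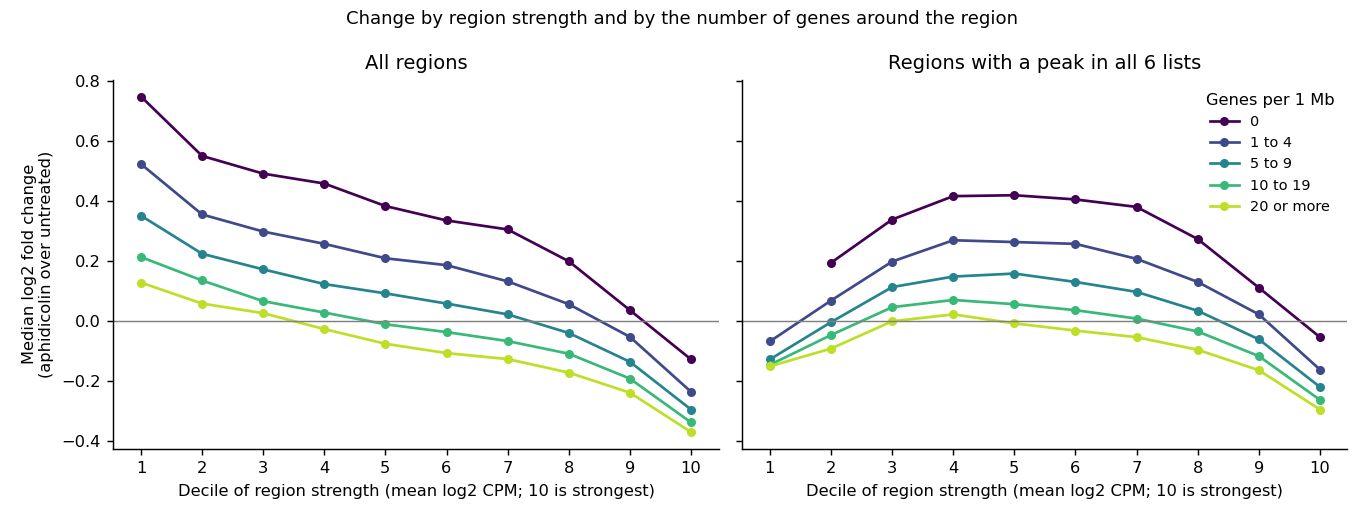
Median log2 fold change (aphidicolin over untreated, y axis) of regions by decile of mean log2 CPM (x axis, 10 is the strongest), 1 line for each number of protein-coding genes in the surrounding 1 Mb window, for all regions (left) and for regions with a peak in all 6 lists (right, points with 20 or more regions). The lines keep their order in every decile on the left, from 0.75 to 0.13 in the weakest and from -0.13 to -0.37 in the strongest, and on the right the 5th decile runs from 0.42 to -0.01.

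How regions entered the table bears on the weak ones. Regions found in all 3 aphidicolin libraries but not in all 3 untreated ones were weak (median 0.51 log2 CPM) and rose in 35.9% of cases, a direction their selection favours. The 2012 regions with the reverse pattern fell in 50.1% of cases and rose in 0, which their selection favours as well. Among regions with a peak in all 6 libraries the medians by decile were -0.11, 0.00, 0.11, 0.15, 0.15, 0.12, 0.08, 0.02, -0.08 and -0.25, lowest at both ends of the range. The weakest decile held only 481 such regions and the next 2815, against 13899 in the strongest. Weak regions had to reach a peak in the shallower untreated libraries, which can favour low values there, so the weak end cannot be read as a fall.

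Counts were also summed over 1 Mb windows. Of 2395 windows tested, 78.2% were called, 981 higher (41.0%) and 892 lower (37.2%). Among 220 windows with 0 genes 215 were higher and 0 lower (median 0.45), and among 255 windows with 20 or more genes 222 were lower and 12 higher (median -0.20). Over windows, the Spearman correlation of fold change with gene number was -0.80 (2395 windows that share libraries, and whose mean region level correlates with the fold at -0.88), and -0.70 with only regions over 10 kb from a gene end. A window's fold correlated with that of the next at 0.50. With strength offsets 1261 windows were higher and 480 lower. Of those with 0 genes 208 were then higher (median 0.33), and of those with 20 or more 158 were lower and 27 higher (median -0.06). Windows with 5 to 9 genes had 149 higher and 244 lower without the offsets and 288 higher and 96 lower with them, so the balance of calls turned. With library totals 1399 windows were higher and 511 lower.

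Most called windows lay in runs shorter than 5 Mb. Called windows in a row made 437 rising and 374 falling runs, with a median length of 1 Mb and 2 Mb. Of these, 46 rising and 45 falling ones covered 5 Mb or more, and they held 309 of the 981 higher and 336 of the 892 lower windows. The longest falling one covered 17 Mb of chromosome 2, from 23 Mb, with 319 genes (median window change -0.18), 509 regions lower and 107 higher. The longest rising one covered 15 Mb of chromosome 4, from 64 Mb, with 28 genes (median 0.40), 172 regions higher and 7 lower. It holds Tnc and Pappa, which encode a matrix protein and a protease of growth factor binding proteins, and the brain genes Astn2, Brinp1 and Ptprd. A rising domain of 13 Mb on chromosome 16 held 16 genes, among them the adhesion and guidance genes Cadm2, Robo1 and Robo2 (median 0.28, 172 regions higher and 6 lower). One of 12 Mb on chromosome 10 from 96 Mb held the matrix genes Dcn and Lum and the growth factor gene Kitl, and one of 10 Mb on chromosome 12 from 41 Mb held 9 genes, among them Immp2l and Nrcam (0.25). Long falling domains lay on chromosome 11 (14 Mb from 67 Mb, 334 genes, and 12 Mb from 93 Mb, 346 genes, the latter with Col1a1), chromosome 9 (14 Mb from 54 Mb, 170 genes) and chromosome 15 (11 Mb from 75 Mb, 263 genes).

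**Figure D3:**
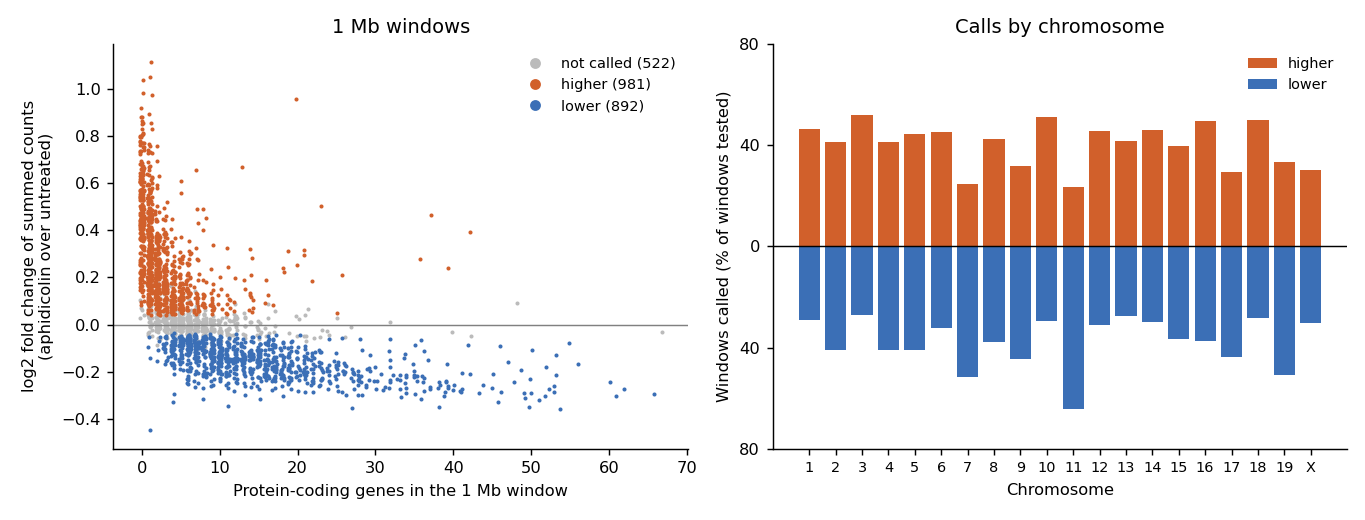
Left, log2 fold change of counts summed over each of 2395 windows of 1 Mb (y axis) against the number of protein-coding genes in it (x axis, points moved sideways a little), coloured by call. Right, windows called higher (up) and lower (down) as a percentage of the windows tested on each chromosome with 20 or more. Of the 220 windows with 0 genes 215 are higher, and chromosome 11 has the most falls (64.3%) and the fewest rises (23.5%).

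The largest falls among windows above the median level were at 80 to 81 Mb of chromosome 10 (54 genes, -0.36 ± 0.04, SE, adjusted p = 1.6e-04, 119 regions lower and 0 higher), with 11.55, 11.51 and 11.43 log2 CPM untreated and 11.20, 11.12 and 11.12 with aphidicolin, and at 74 to 75 Mb of chromosome X (27 genes, -0.35 ± 0.03), where Flna lies. The next windows in order were at 73 Mb of chromosome X, 81 Mb of chromosome 10, 142 Mb of chromosome 5, which holds Actb, 120 Mb of chromosome 11, which holds Actg1, 145 Mb of chromosome 7 and 5 Mb of chromosome 19, from -0.35 to -0.32. That at 145 Mb of chromosome 7 has only 4 genes. Rises above the median level were smaller, from 0.14 to 0.16. That at 31 to 32 Mb of chromosome 13 holds the forkhead genes Foxq1, Foxf2 and Foxc1, of which the latter pair shape mesenchyme (0.14 ± 0.02, adjusted p = 2.5e-04, 19 regions higher and 3 lower), with 8.44, 8.40 and 8.43 untreated and 8.59, 8.56 and 8.54 with aphidicolin. In all of these 16 windows the groups did not overlap, which the rule required (36.7% of all windows passed that rule).

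Among windows with 20 or more genes 12 rose, and they are given by the genes they hold. The largest rise, 0.96 ± 0.14 (SE, adjusted p = 3.6e-04) at 87 to 88 Mb of chromosome 5, was over the casein genes of milk (Csn1s1, Csn2, Csn3) and Ugt2 and Sult1 enzymes of liver. Windows on chromosome 16 from 88 Mb and from 89 Mb hold keratin-associated genes of hair (0.50 and 0.24), that on chromosome 3 from 92 Mb the epidermal cornified envelope genes Lor, Ivl, Lce and Sprr (0.39), and those on chromosomes 9 and 7 olfactory receptors, 36 of 37 genes at 39 Mb of chromosome 9 (0.46). The others hold the interferon-activated Ifi genes at 173 Mb of chromosome 1 (0.32), placental prolactins at 27 Mb of chromosome 13 (0.29), surfactant and mannose-binding lectin genes at 41 Mb of chromosome 14 (0.25), lectin-like receptors of lymphocytes at 129 Mb of chromosome 6 (0.21) and cystatin-like Stfa genes at 36 Mb of chromosome 16 (0.05). All 12 were called with strength offsets as well, but the last, at 0.05, lost its call when any of 5 of the 6 libraries was left out, all but untreated b. They were picked for going against the trend, so no test of the group was made. In the opposite corner, 4 windows with at most 1 gene fell, from -0.05 over Tenm4 to -0.45 on chromosome Y, and the call over Tenm4 was lost with strength offsets (0.02), with library totals (0.04) and without untreated b, aphidicolin a or aphidicolin b.

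By chromosome, the largest falls in the share of counts were on the pair with the most genes per Mb, chromosomes 11 and 7. Chromosome 11, with 13.92 genes per Mb of the windows tested, took 7.57%, 7.54% and 7.49% of untreated counts and 7.24%, 7.18% and 7.16% with aphidicolin (exact two-sided permutation p = 0.1), and 74 of its 115 windows were lower. Chromosome 7 (13.82 genes per Mb) went from 6.78%, 6.77% and 6.73% to 6.59%, 6.53% and 6.53%, and chromosomes 8, 9, 15, 17 and 19 were also lower without overlap. Chromosome 3 (6.43 genes per Mb) went from 5.08%, 5.14% and 5.18% to 5.26%, 5.30% and 5.32%, with 79 of 152 windows higher, and chromosomes 1, 6, 10, 12, 13, 14, 16 and 18 were higher without overlap as well. Chromosome X, from 1.64% to 1.67% untreated and 1.65% to 1.66% with aphidicolin, overlapped, as did chromosomes 2, 4 and 5. The order by gene number was not strict. Chromosome 8 (8.06 genes per Mb) had a lower share though 52 of its windows were higher and 46 lower, chromosome 6 (8.04) had a higher share, and chromosomes 2, 4 and 5 hold more genes per Mb than either (9.17, 8.68 and 8.51).

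Each gene was then given the summed counts of the regions that lie nearest to it, out to 50 kb. Of 17423 genes tested, 51.0% were called, 4318 higher (24.8%) and 4568 lower (26.2%). With strength offsets 2611 were higher and 3001 lower, and with library totals 4997 and 3610 (58.1% of calls higher, against 48.6%). Direction went with gene length. Of 552 genes longer than 300 kb, 437 were higher and 5 lower (median 0.27, 0.17 with strength offsets), and of 224 over 500 kb 205 were higher and 0 lower by edgeR (with strength offsets 187 and 2). Of 5593 genes of 10 to 30 kb, 968 were higher and 1811 lower (median -0.05). Long genes lie where genes are few. With 1 to 4 genes per Mb the median was 0.33 over 300 kb (293 of 327 higher, 0 lower) and 0.12 under 30 kb, and with 10 to 19 genes per Mb 0.09 and -0.03. Among regions over 10 kb from any gene end, those inside a gene of any length and those outside had like medians at the same gene number, 0.20 and 0.23 with 1 to 4 genes and -0.07 and -0.08 with 20 or more.

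**Figure D4:**
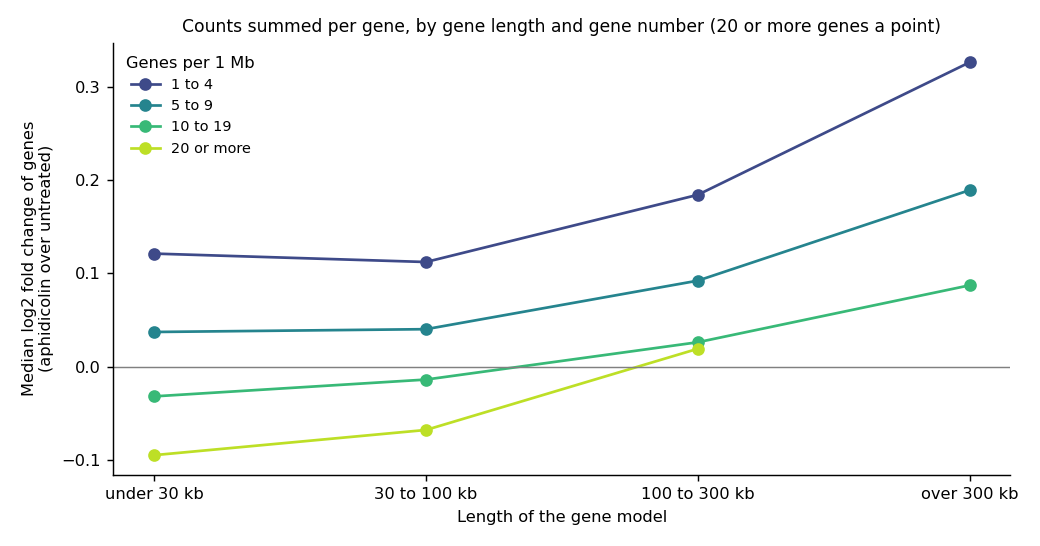
Median log2 fold change of counts summed per gene (y axis) by length of the gene model (x axis), 1 line for each number of genes in the surrounding 1 Mb, for points with 20 or more genes. The line for 1 to 4 genes goes from 0.12 under 30 kb to 0.33 over 300 kb, and that for 20 or more starts at -0.10.

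Common fragile site genes, very long genes where replication stress breaks chromosomes, all rose: 24 of 24 found were higher and 0 lower by edgeR, with a median of 0.31 (20 and 0 with strength offsets, median 0.21). Other genes over 500 kb did the same, with 181 of 200 higher and 0 lower (median 0.34), so the list did not stand out among genes of its length. Lrp1b, which encodes a giant lipoprotein receptor, went from 3.68, 3.76 and 3.84 log2 CPM to 4.71, 4.85 and 4.92, a change of 1.07 ± 0.07 (SE, adjusted p = 1.7e-05). Csmd3 went from 4.51, 4.61 and 4.61 to 5.13, 5.23 and 5.29 (0.64 ± 0.06). Fhit, the gene of the most broken site in human lymphocytes and a dinucleotide hydrolase (chromosome 14, 9550092 to 11162061), went from 7.57, 7.73 and 7.88 to 8.16, 8.22 and 8.22 (0.47 ± 0.06, adjusted p = 1.3e-04), and Wwox, an oxidoreductase gene (chromosome 8, 114439635 to 115352712), from 7.76, 7.86 and 7.93 to 8.13, 8.14 and 8.15 (0.29 ± 0.04). Groups did not overlap in any of these 4. Rora and Pde4d, at 0.15 each, were not called with strength offsets, and Pde4d was not called without untreated library b.

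Long genes with neural roles were among the largest rises of genes above the median level with 3 or more regions, where 23.5% of genes were called without overlap between groups. Egfem1 (chromosome 3, 29081653 to 29691058, 19 regions) went from 4.91, 5.07 and 5.19 log2 CPM to 5.76, 5.87 and 5.85 (0.77 ± 0.07, SE, adjusted p = 3.0e-05). Nkain2, whose product binds the sodium pump (chromosome 10, 31689310 to 32897174), went from 4.98, 5.01 and 5.10 to 5.71, 5.79 and 5.78 (0.73 ± 0.05, adjusted p = 1.7e-05). Adgrb3, an adhesion G protein-coupled receptor of neurons, rose by 0.72 ± 0.05, the cadherin gene Cdh12 by 0.69 ± 0.07, the hair cell channel gene Tmc1 by 0.69 ± 0.10 and the glutamate receptor gene Grik1 by 0.65. Cntnap5b, Trhde, Dcc, Lrrtm4 and Rit2 were also among the 12, at 0.61 to 0.62, and all 12 stayed called with strength offsets. A list of 18 synaptic genes had 16 higher and 0 lower (median 0.43, 13 and 0 with strength offsets), where 24.8% of all genes were higher: the potassium channel gene Kcnq3 rose by 0.70 ± 0.05, Cdh8 by 0.76 ± 0.07, and the synapse organisers Ptprd and Nlgn1 by 0.44 and 0.45. Cacna1c and Syt1, both at 0.07, did not pass with all libraries, and both did without untreated library c (0.12 and 0.14).

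Receptor and channel families had mostly higher calls. Of all 17423 genes 24.8% were higher and 26.2% lower, which is 4318 and 4568 genes, or 2611 and 3001 with strength offsets. Of 121 olfactory receptor genes with regions, out of 1110 symbols, 83 were higher and 1 lower (median 0.51), 38 and 4 with strength offsets (median 0.24), and Olfr315 and Olfr1413 rose by 1.26 ± 0.12 and 1.17 ± 0.09 (SE). Vomeronasal receptors had 25 of 35 higher and 1 lower (10 and 1 with strength offsets), where Vmn2r29 fell by 0.86 and Vmn1r90 rose by 1.01. Their near-identical copies can share reads, so single values are uncertain. Members of both families had a median of 1 region, at low levels (medians 2.18 and 1.56 log2 CPM). Regions found in all 3 libraries of the aphidicolin group only numbered 36320, against 2012 for the untreated group, so entry of weak regions favours rises. With a peak in all 6 libraries the family medians were 0.43 (olfactory) and 0.42 (vomeronasal). GABA and glutamate receptor genes had 31 of 41 higher and 1 lower (20 and 3 with strength offsets), potassium channels 50 of 92 and 5 (31 and 6), classical and other cadherins 17 of 23 and 2 (11 and 2), serpins 25 of 41 and 4 (10 and 4) and cytochrome P450 genes 26 of 53 and 5 (13 and 7). Keratin and keratin-associated genes had 33 of 66 higher and 5 lower, but 12 and 8 with strength offsets (median 0.29 and 0.02). Krt16, a keratin of stressed epidermis, rose by 0.69 ± 0.09 and Krt78 fell by 0.33 ± 0.04.

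The 12 largest falls of genes above the median level with 3 or more regions were at genes of several kinds, among them the cytoplasmic actins Actb and Actg1 and the filamin gene Flna. Tead3, a transcription factor gene of the Hippo pathway (chromosome 17, 28331671 to 28350805, 5 regions), went from 7.39, 7.50 and 7.42 log2 CPM to 6.87, 6.86 and 6.85, a change of -0.58 ± 0.03 (SE, adjusted p = 1.7e-05). Flna, which encodes the actin crosslinker filamin A (chromosome X, 74223461 to 74249854, 8 regions), went from 6.73, 6.76 and 6.81 to 6.33, 6.26 and 6.27 (-0.48 ± 0.04, adjusted p = 1.8e-05). Zc3h10, an RNA-binding protein gene, went from 6.41, 6.42 and 6.39 to 5.88, 5.90 and 5.85 (-0.53 ± 0.04), and Dapk3, a kinase of myosin light chain, from 7.47, 7.57 and 7.55 to 7.06, 7.02 and 7.07 (-0.48 ± 0.03). The libraries of the groups were far apart relative to their spread in all 4 genes. Epha1, an ephrin receptor gene, had -0.66 ± 0.08, and one of its regions lies beside Zyx as well. Actg1 (-0.57), Actb (-0.50), Ifna13 (-0.80), Rpl3 (-0.64), Pgk1 (-0.48), Pou5f1 (-0.48) and Tent5b (-0.47) complete the 12. Actin, interferon and ribosomal protein genes can share reads with near-identical copies, and Pou5f1 with the cassette.

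Contractile and adhesion genes were mostly lower. Of 20 in the list, 17 were lower and 1 higher, with a median of -0.25 (26.2% of all genes were lower, with a median of -0.004), and 15 were lower and 0 higher with strength offsets. The rise was at Filip1l (0.09), which lost its call without untreated library b or aphidicolin library b or c and was at -0.01 with strength offsets. Zyx, a focal adhesion protein gene, went from 7.26, 7.24 and 7.24 log2 CPM to 6.87, 6.81 and 6.82 (-0.41 ± 0.03, SE, adjusted p = 1.7e-05), though with strength offsets it was at -0.04 and not called. Tpm2, a tropomyosin gene, went from 6.35, 6.38 and 6.30 to 6.05, 6.01 and 6.02 (-0.32 ± 0.04), and the regulator Srf itself from 6.71, 6.74 and 6.68 to 6.43, 6.44 and 6.39 (-0.29 ± 0.03, but -0.07 and not called with strength offsets). Groups did not overlap in these 3. The myosin light chain gene Myl9 fell by 0.44, Tagln by 0.42, Cnn2 and Acta2 by 0.39 and the talin gene Tln1 by 0.37. Vcl (-0.09) and Cnn1 (-0.15) did not pass, but Vcl did without untreated library a (-0.13) and Cnn1 with strength offsets (-0.25).

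**Figure D5:**
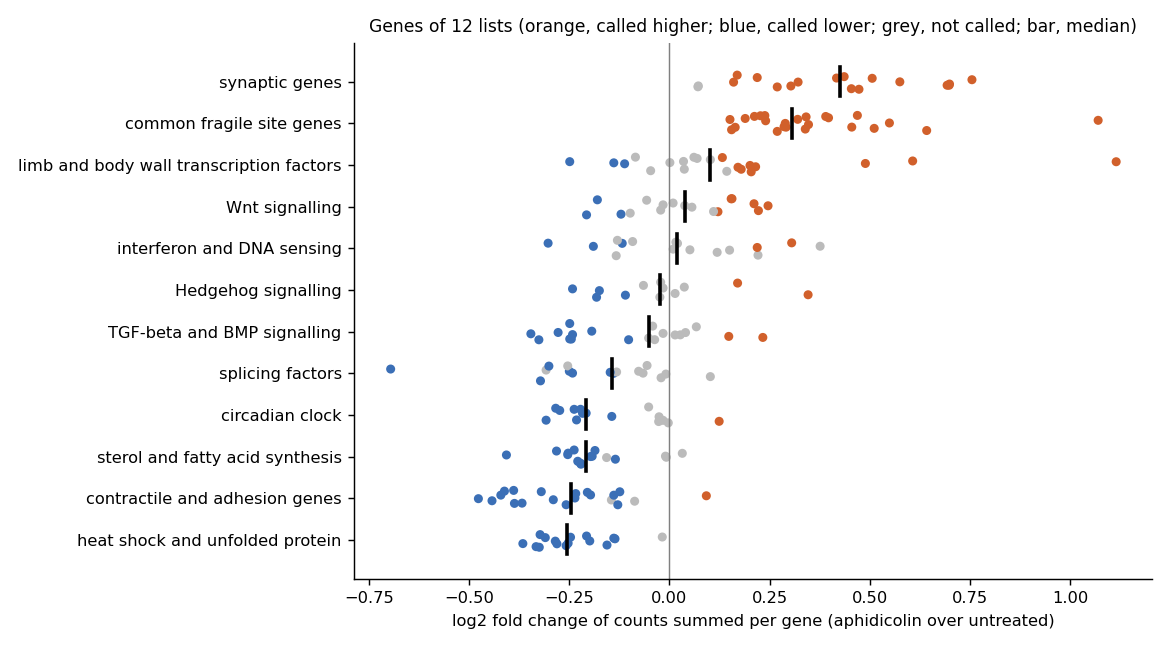
log2 fold change of counts summed per gene (x axis, aphidicolin over untreated) for each gene of 12 lists (rows, ordered by median), coloured orange where called higher, blue where called lower and grey where not called, with the median as a black bar. Synaptic genes (median 0.43) and fragile site genes (0.31) are at one end and contractile (-0.25) and heat shock genes (-0.26) at the other.

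Stress and metabolic lists had nearly only lower calls, most of which were lost with strength offsets. For comparison, 26.2% of all 17423 genes were lower, or 3001 genes with the offsets. Of 16 heat shock and unfolded protein genes 15 were lower and 0 higher (median -0.26), and 3 and 1 with strength offsets: Hspa8, a constitutive chaperone gene, went from 7.92, 8.01 and 8.04 log2 CPM to 7.62, 7.64 and 7.62 (-0.37 ± 0.03, SE, adjusted p = 3.5e-05), and Sesn2, Atf4 and Ddit3, of the integrated stress response, changed by -0.31, -0.33 and -0.32. Of 16 sterol and fatty acid synthesis genes 12 were lower and 0 higher (3 and 2 with strength offsets), so that with the offsets both lists were near the share of all genes. Hmgcs1, an early enzyme of cholesterol synthesis, went from 6.66, 6.64 and 6.54 to 6.26, 6.15 and 6.21 (-0.41 ± 0.04, adjusted p = 5.3e-05), Fdft1 fell by 0.28 and Scd2 and Srebf2 by 0.22 and 0.23. With strength offsets Atf4, Fdft1 and Scd2 were still called, and Hspa8, Sesn2, Ddit3, Hmgcs1 and Srebf2 were not. Of 15 clock genes found, 9 were lower and 1 higher, 6 and 1 with strength offsets. The rise was at Hlf (0.12), which lost its call with the offsets and without any of untreated b and aphidicolin a, b and c. They were led by the transcriptional repressors Ciart (-0.31), Per1 (-0.28), Nr1d1 (-0.27) and Bhlhe40 (-0.24), of which Per1 and Nr1d1 kept their call with strength offsets. Of 16 splicing factors 7 were lower and 0 higher, the same numbers as with strength offsets, among them Ptbp1 (-0.30) and Hnrnpl (-0.24).

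Signalling lists held calls in both directions, several of them near or below the shares of all genes (24.8% higher and 26.2% lower). Of 19 TGF-beta and BMP genes 9 were lower and 2 higher (6 and 2 with strength offsets). The BMP target Id3 went from 7.69, 7.69 and 7.66 log2 CPM to 7.40, 7.32 and 7.34 (-0.33 ± 0.03, SE, adjusted p = 3.6e-05), Id1 changed by -0.35, and the inhibitory Smad6 and Smad7 by -0.25 each. The rises were at the ligand genes Bmp4 (0.15 ± 0.04) and Bmp2 (0.23 ± 0.07). Neither was called with strength offsets, Bmp4 was not without aphidicolin b or c, and Bmp2 was not without untreated b or aphidicolin a or c. Of 17 Wnt genes 6 were higher and 3 lower, 3 and 5 with strength offsets: Lgr5, a receptor of R-spondins, rose by 0.21 ± 0.03 and the inhibitor gene Dkk2 by 0.25 ± 0.05, while the receptor genes Fzd2 and Fzd7 fell by 0.21 and 0.18. Dkk2 and Fzd7 were not called with strength offsets. Of 12 Hedgehog genes 2 were higher, the antagonist Hhip (0.35 ± 0.06) and the repressor gene Gli3 (0.17 ± 0.03), and 4 lower, led by the transducer Smo (-0.24 ± 0.04) and the inhibitor Sufu (-0.17 ± 0.03). Of 16 interferon and DNA sensing genes found, 2 were higher and 3 lower (1 and 2 with strength offsets), with the RNA sensor gene Ifih1 at 0.30 and Stat2 at -0.30. Irf1, at -0.12, was at 0.001 with strength offsets and lost its call with genes linked to regions within 10 kb only.

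Limb and body wall transcription factors, which give fibroblasts their positional identity, had 9 of 21 higher and 3 lower (6 and 4 with strength offsets), against 24.8% higher and 26.2% lower of all genes. Shox2 went from 4.33, 4.13 and 4.10 log2 CPM to 4.70, 4.69 and 4.64 (0.49 ± 0.07, SE, adjusted p = 2.6e-04), a call lost with regions within 10 kb only (0.26), and Tcf21 from 2.82, 2.97 and 3.06 to 3.48, 3.66 and 3.51 (0.61 ± 0.09). Meis1 and Meis2 rose by 0.20 each, Meis2 not with strength offsets. Hox genes had 1 of 37 higher and 9 lower (median -0.08), where the 24.3% lower is near the share of all genes, and 0 and 14 with strength offsets. Collagens went both ways, with 14 of 43 higher and 12 lower (7 and 16 with strength offsets), Col19a1 at 0.42 ± 0.04 and Col2a1 at -0.37 ± 0.04. So did the Sox family, with 8 of 19 higher and 2 lower, where Sox6 rose by 0.27, and Sox2, which the cassette carries, fell by 0.46. Among metalloproteinases Mmp16 rose by 0.47 and Mmp28 fell by 0.30.

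Genes of protein synthesis had mostly lower calls. Ribosomal protein genes had 44 of 86 lower and 4 higher (median -0.15), and 35 and 4 with strength offsets, against 26.2% lower of all genes. Translation factors had 32 of 70 lower and 5 higher (17 and 6 with strength offsets), with Eif4a1, a helicase of initiation, at -0.41, which strength offsets took to -0.08. Mitochondrial ribosomal proteins had 23 of 69 lower and 7 higher (15 and 6 with strength offsets), proteasome subunits 17 of 46 and 3 (7 and 1), DEAD-box helicases 13 of 37 and 2 (9 and 1), and tubulins 9 of 22 and 0 (5 and 1). Zinc finger genes split 76 higher and 84 lower of 361 (68 and 35 with strength offsets), and solute carriers 114 and 85 of 350 (60 and 64).

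Histone genes encode the proteins that package DNA, and many of them, though not all, are used in S phase. They had 22 of 64 lower (34.4%, against 26.2% of all genes) and 3 higher (18 and 3 with strength offsets). The 22 include H3f3b, H2az1, H2az2 and H1f0, variants that are made outside S phase as well. By kind, 5 of 8 linker H1 genes, 5 of 18 H2A, 4 of 11 H2B, 3 of 15 H3 and 5 of 12 H4 genes were lower, so H2A and H3 were near or below the share of all genes. At gene ends alone 40 of 69 histone regions were lower and 1 higher, where 44.3% of all gene-end regions were lower, and with strength offsets 19 were lower and 1 higher, where 11.1% of all were lower. Chromosome 3 had 11 of 13 such regions lower and the large cluster on chromosome 13, between 21715683 and 23763999, 23 of 47. Beside H4c18 (chromosome 13, 21831463 to 21831680) a region went from 2.06, 2.14 and 2.18 log2 CPM to 0.99, 0.69 and 0.86 (-1.30 ± 0.13, SE, adjusted p = 2.8e-05), and beside H2bc9 (23542406 to 23542565) from 1.27, 1.41 and 1.73 to 0.11, 0.12 and 0.36 (-1.30 ± 0.17, adjusted p = 8.9e-05). A region at H2bc18 on chromosome 3 fell by 0.59 and one at H4c9 by 0.62, and groups did not overlap in any of these 4, which were chosen after their values were seen. Histone genes come in near-identical copies, so which copy a read came from is uncertain.

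Within single genes the ends and the distal regions were compared in one model with each library as a block. Of 7605 genes with both kinds of region, 22.4% were called: 1519 lost more (or gained less) at the end than in regions over 10 kb from it (20.0%) and 186 the reverse (2.45%). The median change was -0.22 at the ends and -0.01 in distal regions. By sign alone, without a call on each, both parts fell in 3463 genes and both rose in 1033, ends fell while distal regions rose in 2613, and the opposite held in 496. With strength offsets 100 genes were called as lower at the end and 163 as higher, and 84 of the first 1519 and 48 of the 186 kept their call, so most of these calls were lost. Leaving out 1 library gave from 262 calls (without aphidicolin library b) to 3088 (without untreated library c), with 468 without untreated library b and 412 without aphidicolin library c, and the block of same-numbered libraries gave 3353. Among genes that kept their call, Stil, a centriole assembly gene, had -0.48 at its end and 0.70 in 1 distal region (difference -1.18 ± 0.16, SE, adjusted p = 0.0038), and Sin3a, the scaffold of a histone deacetylase complex, -0.41 and 0.75 (-1.17 ± 0.15). Kpna6, a nuclear import receptor gene, had -0.38 and 0.72. Phactr1, a regulator of actin and protein phosphatase 1, had 1.32 at 1 end region and 0.19 over 24 distal regions (1.13 ± 0.15, adjusted p = 0.0038), and the neuronal factor gene Myt1l 0.92 and -0.05 over 20 (0.96 ± 0.14). At Actb both parts fell, by 1.69 at the end and 0.54 in distal regions. Suco, Pank3, Rnf138, Ift27, Krt78, Slc28a3, Mbnl1, Tex14, Rec114 and Cldn10, the others of the 16 by the naming rule, were not called with strength offsets. Mbnl1 was also not called without untreated b, Slc28a3 and Cldn10 without aphidicolin b, and Rec114 without either of these.

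Single regions that rose at gene ends or fell over 10 kb from a gene end were also named. At gene ends the largest rises above the median level were at Luc7l2, a splicing factor gene (chromosome 6, 38609838 to 38610164), from 1.37, 1.42 and 1.59 log2 CPM to 2.32, 2.43 and 2.51 (0.97 ± 0.12, SE, adjusted p = 6.2e-05), and at Aoc1, a diamine oxidase gene (chromosome 6, 48895526 to 48896358), from 2.14, 2.28 and 2.74 to 3.22, 3.44 and 3.43 (0.97 ± 0.13). The neural splicing gene Srrm4 (0.78) was also among the 8. Over 10 kb from a gene end the largest falls included regions inside Arap1, a gene for a regulator of Arf GTPases (chromosome 7, 101397708 to 101397907, 3320 bp from an annotated start of the gene), from 2.93, 3.15 and 3.03 to 1.84, 1.87 and 1.95 (-1.16 ± 0.10, adjusted p = 8.9e-06), inside Pacs1 (-1.14 ± 0.11) and inside Iqch (-0.99 ± 0.09), and one 126541 bp from Adcy8 (-0.95 ± 0.10). All 7 regions named here kept their call with strength offsets, and in none did the groups overlap (19.4% of all regions passed that rule). Regions inside genes but not at an end were called in both directions (17.5% higher and 15.1% lower). The Pacs1 region lies in the window at 5 Mb of chromosome 19, which itself fell (-0.32).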

How the data were processed

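ATAC-seq libraries of 3 untreated and 3 aphidicolin MEF samples were compared. The authors deposited raw counts per region, and peak lists whose score column was used for nothing here but whose positions were. The submitters' processing notes name mm10, the aligner Bowtie2 2.2.5, the peak caller MACS2 2.2.0, and bedtools 2.26.0, SAMtools 1.4.1, cutadapt 2.2.0 and bcl2fastq 2.19.1. The counting tool and any shift of reads for the transposase are not given in the sources used here. Per the peak names in the deposited lists, duplicates and mitochondrial reads were removed. The other 5 lists used (ES cells at 0h, MEF at 6h and 12h) are on merged replicates, or do not state it for ES cells, and an overlap of 1 bp counted as shared.

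Counts were tested with edgeR 4.0.16 (quasi-likelihood, TMM, filterByExpr, Benjamini-Hochberg 0.05) in R 4.3.3, for regions, for sums over the nearest gene within 50 kb, for sums over 1 Mb windows with 5 or more regions, and for gene ends against distal regions with each library as a block. Library levels are log2 CPM with a prior count of 2. Strength offsets remove a lowess trend (span 0.3) of fold change on level. Alternatives were library totals, RLE factors, no filter, DESeq2 1.42.0, a peak in all 6 libraries, other distances and window sizes, and each library left out. Genes are 21883 protein-coding models of RefSeq on GRCm38.p6, which names mm10 positions, and promoters are 21262 starts of 17491 genes. No start on chromosome 18 is among them, so results over starts do not cover that chromosome. The fits were also run on simulated counts with a fixed dispersion. Few units were changed there, except in a run for the strength offsets. Such counts differ from these data, so error rates here were not measured.

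Named regions, windows and genes were called, had groups without overlap and a level above the median, and had the largest fold changes (8 per kind and direction, 12 for genes with 3 or more regions). Up to 4 genes per list and 2 per family had the smallest p. List members outside these limits were named after their values were seen. Some items that these rules name are not reported here. The members, lists and classes were chosen with earlier results of these data known. The labels do not say that libraries came from separate cultures, so p-values measure the spread between these libraries, which may be technical. Deeper libraries give smaller counting error, and counts without molecular identifiers are not independent molecules.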

Additional observations from a re-analysis of the deposited data

How the results depend on the processing

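Region strength was the choice that moved most values. With strength offsets 30524 regions, 5612 genes and 263 split genes were called, and with a peak in all 6 libraries 32425 regions and 1096 split genes. With offsets the share called lower was 11.1% at gene ends, 12.3% for nascent peaks, 19% with 20 or more genes per Mb and 14.3% for ES peaks. The share called higher was 27.1% over 200 kb from any gene, 31.6% with 0 genes and 18.2% inside genes over 300 kb. The median log2 difference of a class from other regions, with offsets, within strength deciles and within deciles for regions with a peak in all 6 libraries (the last chosen after seeing the data), was -0.031, -0.108 and -0.077 for gene ends (-0.288 without these), -0.042, -0.233 and -0.172 for nascent peaks (-0.368), -0.126, -0.164 and -0.125 with 20 or more genes (-0.231) and -0.118, -0.164 and -0.112 for ES peaks (-0.277). It was 0.255, 0.255 and 0.219 over 200 kb away (0.358), 0.298, 0.298 and 0.250 with 0 genes (0.415) and 0.131, 0.138 and 0.120 inside genes over 300 kb (0.200). With a peak in all 6 libraries it was -0.284 for nascent peaks and 0.333 with 0 genes. No class reversed in these settings.

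Leaving out 1 library gave 30467 to 57937 regions, 6449 to 9784 genes, 1675 to 1957 windows and 262 to 3088 split genes. Shares called lower ranged from 27.2% to 54.5% at gene ends, 38.1% to 66.7% for nascent peaks, 22.9% to 38.1% with 20 or more genes and 18.6% to 35.4% for ES peaks, and shares called higher from 18.5% to 34.8% inside genes over 300 kb. The lowest values for shares, regions, genes and splits were without aphidicolin b, the deepest library. The cause was not tested.

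Whether library numbers pair the samples is not given in the labels, and the counts did not settle it. Same-numbered libraries correlated at 0.263, 0.012 and 0.154 in their deviations from group means. Untreated a correlated best with its own number, and c slightly more with its own than with aphidicolin b (0.135). Untreated b was at 0.018 with aphidicolin c, so it did not correlate best with its own number. The replicate block gave 60460 regions, 10535 genes, 2011 windows and 3353 split genes, against 49935, 8886, 1873 and 1705 without it. Of 176 named regions, genes, windows and splits, 2300 of 2382 values under an alternative kept direction and call, 67 lost the call, 11 gained one and 4 reversed. The reversals were Irf1 (0.001) and Filip1l (-0.012) with offsets, and the window over Tenm4 with offsets (0.020) and with library totals (0.036).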
